A study of Oryctolagus cuniculus with 8 samples.

Results

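Rab GTPases, the largest branch of the Ras superfamily of small GTPases, direct vesicle traffic between the membranes of a cell. The Rab genes of a count table from rabbit limbal epithelium were chosen by name, as every entry named RAB followed by a number and at most 1 letter and occurring 1 time in the table. This gave 35 genes of 20922 gene entries. RAB2A and RAB35 occur as numbered copies and so fall outside the rule, and other Rab genes, such as RAB1B, RAB4A, RAB8A, RAB11B and RAB14, were not analysed here.

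A Rab protein carries a lipid tail and cycles between GTP-bound and GDP-bound forms. Guanine nucleotide exchange factors (GEFs), many of them DENN domain proteins, load it with GTP at a membrane, GTPase-activating proteins (GAPs), mostly TBC domain proteins, switch it off, and a GDP dissociation inhibitor (GDI) carries it back through the cytosol. Each GTP-bound Rab recruits its own effectors, such as motors, tethers and coat factors, and so marks the identity of an early endosome, a recycling endosome, a lysosome, a Golgi stack, a secretory granule or a melanosome. In stratified epithelia this traffic returns integrins, junction proteins and growth factor receptors to the cell surface.

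The libraries are 4 of SP cells and 4 of NSP cells, total RNA of limbal epithelial cells from New Zealand white rabbits, an albino breed, sequenced on an Ion Proton instrument. SP cells are the side population, which keeps little of the DNA dye Hoechst 33342 because membrane pumps export it, and NSP cells are the remaining sorted cells. All animals were of the same breed, no treatment or allele is labelled, and the labels give no age. They also leave unsaid whether each library of a group is from its own animal, and the p-values therefore rest on a spread between libraries that may be technical. The comparison asks how expression in SP cells differs from that in NSP cells.

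The table held 15553295 to 18931836 exon reads per SP library and 20445565 to 23529101 per NSP library. Levels are CPM, reads scaled to a common library size, and each log2 fold change sets SP over NSP and carries its standard error (SE) from a limma-voom fit. Libraries are numbered 1 to 4 in the order of the table's columns.

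The labelled cell type was checked against markers before the Rab genes were compared. The summed level of 21 tested markers of limbal and corneal epithelium was 1410 to 11400 CPM in SP and 36500 to 64500 CPM in NSP libraries, and 19 of them were lower in SP. SP replicate 3 was the lowest of all libraries for these markers. Markers of other cells were mostly higher in SP, with 13 of 13 tested T and NK cell markers (775 to 3070 CPM in SP and 11.2 to 19.4 CPM in NSP), 10 of 13 of endothelium (1190 to 11500 CPM and 24.4 to 31.1 CPM), 11 of 12 of melanocytes (2250 to 13900 CPM and 194 to 340 CPM), 9 of 13 of myeloid cells (1410 to 2820 CPM and 49.5 to 133 CPM), 5 of 5 of B and plasma cells (268 to 803 CPM and 0.186 to 1.36 CPM), 7 of 10 of stroma (282 to 510 CPM and 56.8 to 84.0 CPM) and 5 of 8 of Schwann cells (484 to 1290 CPM and 226 to 312 CPM). In the stroma list 1 marker was lower in SP, as was 1 in the Schwann cell list. ERBB3, the most abundant Schwann cell marker, did not pass (180 ± 146 CPM in SP against 176 ± 48.8 CPM in NSP, adjusted p = 0.664 by limma-voom). The T and NK cell markers CD8B, GZMK, CXCR6 and IL7R, the B cell markers MS4A1, MZB1 and POU2AF1 and the stromal markers COL3A1, LUM and KERA were at 0 reads in all NSP libraries. So were MRC1 of the myeloid list and SCN7A of the Schwann cell list. No marker of any of the 8 lists was without reads in SP. A marker without reads in NSP, such as CXCR6 or MZB1, could pass the filter on low counts only through SP. The counts of higher markers are therefore partly set by that filter, while the summed levels include markers that did not pass it. The part of these cells in the Rab results was not tested, and in such bulk samples fewer cells of a type and less RNA per cell cannot be told apart.

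Of the 35 Rab genes, 32 passed the filter on low counts and were tested among 10004 genes. By limma-voom, with adjusted p under 0.05, 6 of them (18.8%) were higher in SP, against 17.5% of all tested genes, and 7 (21.9%) were lower, against 13.3% of all tested genes. The other 19 did not pass the threshold. With median-ratio scaling factors 4 Rab genes were higher and 8 lower, and with upper-quartile factors 3 were higher and 8 lower. Over all tested genes the split was 1754 higher and 1330 lower. It was 1557 and 1499 with median-ratio factors, and 1406 and 1654 with upper-quartile factors. Without NSP replicate 1, 2, 3 or 4, each left out in turn, 3 Rab genes were higher (9.38%). The share of all tested genes that were higher fell as well in these fits, to 11.6%, 12.8%, 14.2% and 12.5%. The CPM of all SP libraries lay above those of all NSP libraries for 5 of the 32 genes (15.6%, against 18.6% of all tested genes) and below them for 7 (21.9%, against 14.2%), while 20 overlapped. Of the 7 lower genes, RAB3C passed the filter through its NSP libraries alone. RAB9B had 4 NSP libraries and 1 SP library at the minimum of the filter. The differences of RAB3C and RAB9B, and so the count of lower genes, are partly set by the filter.

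The median log2 fold change of the 32 genes was -0.07, and that of all tested genes 0.11. The other scaling factors moved the median of all genes by -0.11 (median-ratio) and -0.19 (upper-quartile) and that of the Rab genes with it, since a scaling factor shifts all genes alike. The Rab median minus the median of all genes was -0.18 as reported, -0.11 with quality weights and -0.31 without SP replicate 2, the extremes of the 15 alternatives. With quality weights the Rab median itself was 0.02. Single genes ranged more widely, with log2 fold changes between -4.51 for RAB3C and 2.18 for RAB6B. The summed level of all 35 genes was 2145 ± 194 CPM in SP against 2317 ± 167 CPM in NSP (SD, n = 4 each), and the groups overlapped (1965 to 2364 CPM and 2137 to 2518 CPM). The Rab genes thus differed in which members were high, while their sum differed by less than the range within a group.

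**Figure D1:**
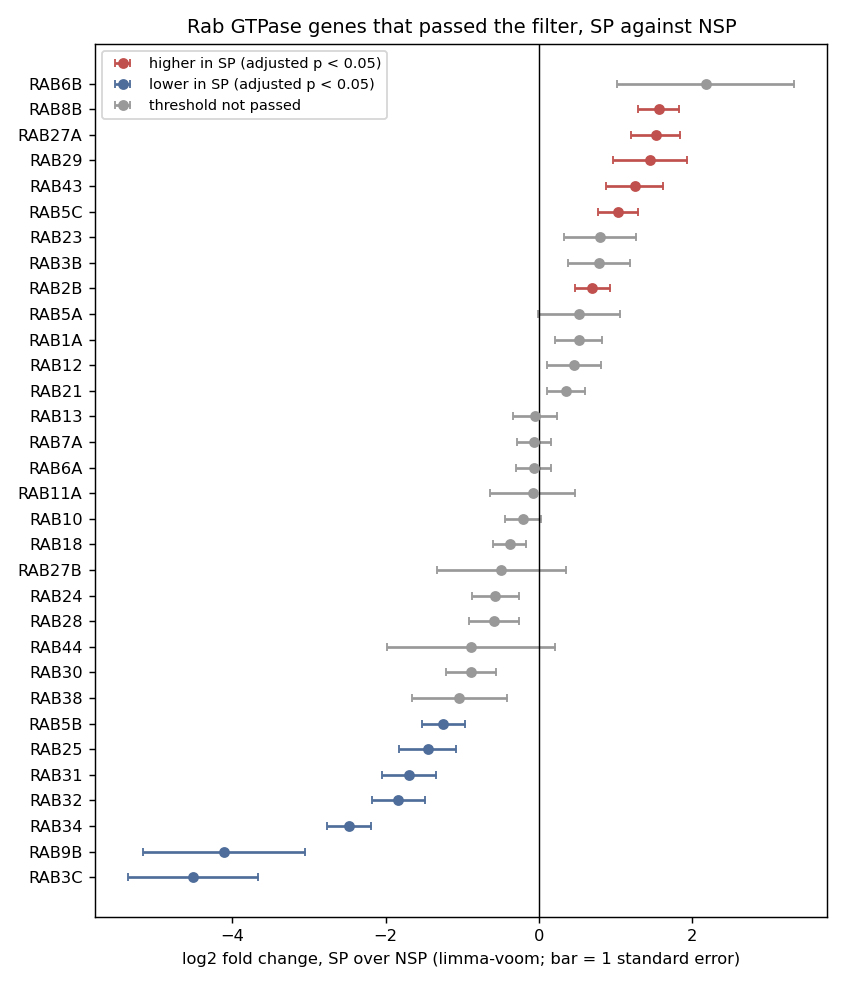
Log2 fold change (x axis, SP over NSP, limma-voom) of the 32 Rab genes that passed the filter, each a row, with bars of 1 standard error and coloured by direction where the adjusted p was under 0.05. The 7 lower genes form the bottom rows from RAB5B (-1.24) to RAB3C (-4.51), and RAB6B (2.18) has the highest value without passing the threshold.

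Levels of different genes were compared per kilobase of exon. RAB7A, which governs fusion with late endosomes and lysosomes, was the most abundant Rab gene in both groups, at 368 ± 76.3 CPM per kilobase in SP and 380 ± 51.5 CPM per kilobase in NSP. Behind it in SP came RAB11A (126 ± 70.3), RAB5C (107 ± 28.9), RAB2B (83.0 ± 16.1) and RAB1A (80.6 ± 33.9 CPM per kilobase). In NSP the following ranks were held by RAB25 (171 ± 40.3), RAB32 (116 ± 43.0), RAB5B (116 ± 30.6) and RAB11A (109 ± 29.8 CPM per kilobase). RAB25 ranked 8 in SP and 2 in NSP, RAB32 ranked 15 in SP and 3 in NSP, and RAB2B ranked 4 in SP and 13 in NSP. For RAB7A the log2 fold change was -0.06 ± 0.22 (adjusted p = 0.864 by limma-voom).

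Among the Rab proteins of early endosomes, the 3 RAB5 paralogs, which drive endosome fusion and the uptake of receptors, moved apart. RAB5C stood at 114, 180, 184 and 231 CPM in SP replicates 1 to 4 and at 84.3, 68.1, 83.4 and 104 CPM in NSP replicates 1 to 4. Every SP library lay above every NSP library, and the log2 fold change was 1.03 ± 0.26 (adjusted p = 0.0128 by limma-voom). The call was lost without NSP replicate 1 (adjusted p = 0.0545). RAB5B stood at 49.0, 56.1, 31.1 and 49.5 CPM in SP and at 77.7, 104, 148 and 110 CPM in NSP. Here every SP library lay below every NSP library, with a log2 fold change of -1.24 ± 0.28 (adjusted p = 0.00753). RAB5A stood at 77.7, 40.6, 57.2 and 10.5 CPM in SP and at 21.4, 28.3, 36.2 and 23.51 CPM in NSP. SP replicates 1 to 3 lay above all NSP libraries and SP replicate 4 below them. RAB5A did not pass the threshold (0.53 ± 0.53, adjusted p = 0.490), and it passed without SP replicate 4 (0.92, adjusted p = 0.0335).

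The 3 paralogs summed to 185 ± 13 CPM per kilobase in SP and 184 ± 35.6 CPM per kilobase in NSP (SD, n = 4 each). RAB5C made up 40.7%, 56.3%, 61.8% and 70.3% of that sum in SP and 34.8%, 24.4%, 22.0% and 32.5% in NSP. RAB5B made up 30.4%, 30.5%, 18.2% and 26.3% in SP and 56.0%, 65.1%, 68.1% and 59.9% in NSP. RAB5C was thus the larger share in each SP library and RAB5B in each NSP library, and such shares within a library do not depend on the scaling factors. The family was chosen for this description after its values were seen, so no test is given, and how reads that match more than 1 paralog were counted is not given in the sources used here.

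**Figure D2:**
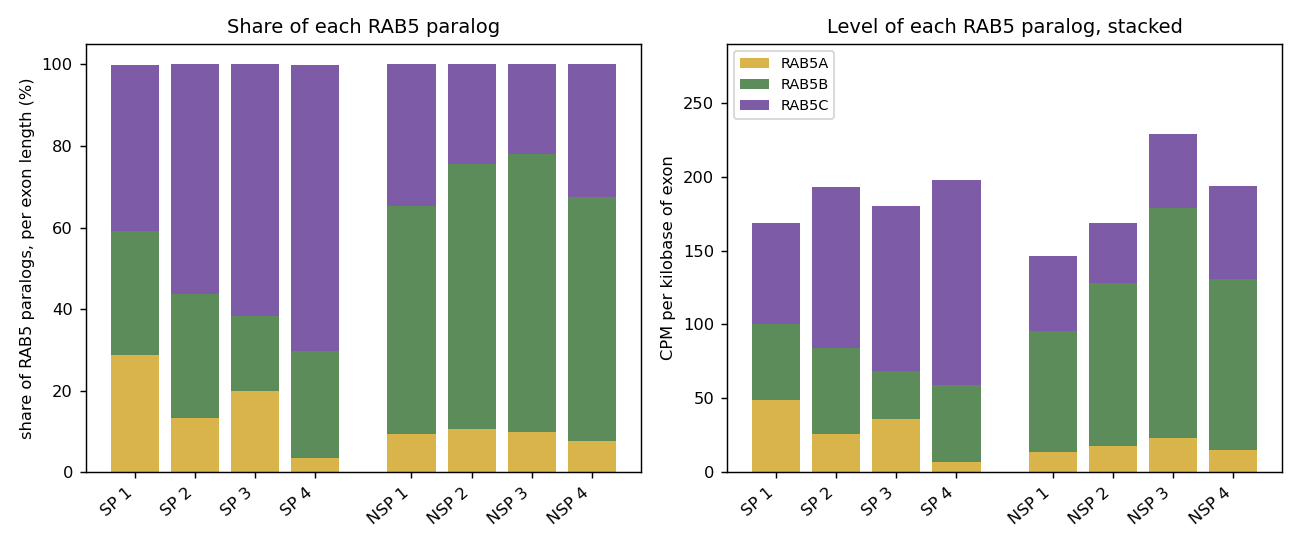
Share of the 3 RAB5 paralogs in their sum per exon length (left, percent) and their stacked levels (right, CPM per kilobase of exon) in each of the 4 SP and 4 NSP libraries. RAB5C takes 40.7% to 70.3% in SP and 22.0% to 34.8% in NSP, while the stacked totals average 185 and 184 CPM per kilobase.

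RAB31, a relative of RAB5 that acts between the Golgi and endosomes and in the sorting of the EGF receptor, stood at 62.2, 99.2, 45.0 and 54.1 CPM in SP and at 152, 175, 377 and 164 CPM in NSP. All SP libraries were below all NSP libraries, and NSP replicate 3 stood far above the others. The log2 fold change was -1.69 ± 0.35 (adjusted p = 0.00511 by limma-voom), and -1.39 without NSP replicate 3. RAB21, which carries integrins from the surface into endosomes, had 49.2 ± 8.33 CPM in SP against 39.0 ± 8.22 CPM in NSP (SD, n = 4 each; 0.35 ± 0.25, adjusted p = 0.316). RAB24, an unusual Rab tied to autophagy, had 56.9 ± 12.9 CPM in SP against 86.2 ± 30.8 CPM in NSP (-0.57 ± 0.30, adjusted p = 0.183), and it passed only with library quality weights (adjusted p = 0.0467). Of the 6 Rab genes of early endosomes, 1 was higher, 2 were lower and 3 did not pass. Over all tested genes, 17.5% were higher and 13.3% lower.

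In the recycling and apical delivery group, RAB8B rose and RAB25 fell. RAB8B, which with its paralog RAB8A brings vesicles to the plasma membrane and to junctions, stood at 77.1, 61.6, 91.2 and 46.6 CPM in SP and at 22.1, 22.5, 22.6 and 24.1 CPM in NSP. All SP libraries lay above NSP and differed among themselves, whereas the 4 NSP libraries lay close together (coefficients of variation of 27.9% in SP and 3.75% in NSP). For RAB8B the log2 fold change was 1.57 ± 0.27 (adjusted p = 0.00199 by limma-voom), which ranged from 1.38 to 1.61 over the 15 alternatives.

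RAB25, the epithelial member of the RAB11 group, which recycles integrins and apical proteins, stood at 82.5, 108, 32.7 and 94.7 CPM in SP and at 249, 177, 147 and 233 CPM in NSP. No SP library reached the lowest NSP library, and the lowest SP library, replicate 3, was also the one with the lowest summed epithelial markers (1410 CPM, against 8100 to 11400 CPM in the other SP libraries). The log2 fold change was -1.45 ± 0.37 (adjusted p = 0.0133 by limma-voom). RAB11A, which is found in most cell types and runs the recycling endosome, stood at 207, 170, 160 and 26.9 CPM in SP and at 120, 92.9, 169 and 105.8 CPM in NSP. SP replicate 4 was below every other library, and RAB11A did not pass the threshold (-0.08 ± 0.56, adjusted p = 0.930). Its fold change turned positive without SP replicate 4 (0.43) and without NSP replicate 3 (0.09), and passed in neither. Both genes together summed to 193 ± 70.0 CPM per kilobase in SP and 280 ± 35.6 CPM per kilobase in NSP, and the groups overlapped.

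RAB10, which serves basolateral recycling and GLUT4 traffic, had 184 ± 45.2 CPM in SP against 209 ± 29.1 CPM in NSP (SD, n = 4 each; adjusted p = 0.542 by limma-voom). RAB13, which brings proteins to tight junctions, stood at 46.4, 55.6, 52.6 and 108 CPM in SP and at 71.3, 62.3, 49.97 and 71.8 CPM in NSP. SP replicate 4 alone lay above the NSP range (-0.05 ± 0.29, adjusted p = 0.917). RAB12, which acts in the degradation of transferrin receptor, had 15.3 ± 5.14 CPM in SP against 10.9 ± 2.62 CPM in NSP (adjusted p = 0.349).

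Of the Rab genes of late endosomes and lysosomes, RAB29 was higher and RAB9B lower. RAB29, which acts at the Golgi and at stressed lysosomes and can recruit the kinase LRRK2, stood at 9.17, 20.6, 23.0 and 32.3 CPM in SP and at 8.54, 3.76, 7.61 and 9.67 CPM in NSP. SP replicate 1 lay within the NSP range, and the groups of RAB29 overlapped, unlike those of the other 12 called genes. Its log2 fold change of 1.45 ± 0.48 passed narrowly (adjusted p = 0.0422 by limma-voom), and the call was lost in 11 of the 15 alternatives. It was lost without SP replicate 2, 3 or 4 (adjusted p = 0.0801, 0.0906 and 0.0889) and without NSP replicate 1, 2, 3 or 4 (0.0948, 0.123, 0.0779 and 0.0691), with median-ratio (0.0578) and upper-quartile factors (0.0709), without the filter (0.0530) and after thinning to equal depth (0.0549).

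RAB9B, a relative of RAB9A, which returns mannose 6-phosphate receptors to the Golgi, was scarce, with 20 reads in all SP and 188 reads in all NSP libraries. Its levels were 0, 0.414, 0.640 and 0 CPM in SP and 2.58, 1.67, 2.55 and 2.14 CPM in NSP. The groups did not overlap, and 1 of 4 SP libraries reached the minimum of the filter, against 4 of 4 NSP libraries. RAB9B thus passed only with its NSP libraries, and its p is partly set by the filter. The fitted log2 fold change was -4.11 ± 1.06 (adjusted p = 0.0145 by limma-voom) and -1.92 with limma-trend, so its size depends on the offset added to low counts. RAB28, a Rab of photoreceptors that is mutated in human cone-rod dystrophy, had 20.1 ± 2.17 CPM in SP against 31.9 ± 14.1 CPM in NSP (SD, n = 4 each; adjusted p = 0.207).

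RAB34 was the lower member with the smallest p. It acts at the Golgi and in the positioning of lysosomes, and takes part in the formation of primary cilia. RAB34 stood at 10.2, 7.34, 13.1 and 13.3 CPM in SP and at 54.1, 66.9, 52.9 and 63.4 CPM in NSP. Each SP library was far below each NSP library, with a log2 fold change of -2.48 ± 0.29 (adjusted p = 0.000314 by limma-voom) that ranged from -2.72 to -2.29 over the 15 alternatives. RAB23, a regulator of Hedgehog signalling at the cilium, had 5.02 ± 1.85 CPM in SP against 2.85 ± 0.846 CPM in NSP (SD, n = 4 each; 0.80 ± 0.48, adjusted p = 0.229).

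The other Golgi and secretory pathway members included 2 higher genes with less stable calls. RAB43, which acts in Golgi structure and receptor transport, stood at 58.2, 46.1, 48.2 and 129 CPM in SP and at 37.9, 20.4, 22.1 and 28.0 CPM in NSP. All SP libraries lay above NSP, with SP replicate 4 far above the rest. For RAB43 the log2 fold change was 1.25 ± 0.37 (adjusted p = 0.0267 by limma-voom), and 0.78 without SP replicate 4 (adjusted p = 0.0430). Its call was lost without NSP replicate 2, 3 or 4 (adjusted p = 0.0784, 0.0678 and 0.0615) and with upper-quartile factors (0.0537). RAB2B, which works in traffic between the endoplasmic reticulum and the Golgi, stood at 48.4, 56.6, 75.2 and 69.4 CPM in SP and at 40.4, 34.8, 38.3 and 37.7 CPM in NSP. The groups did not overlap, and the log2 fold change was 0.70 ± 0.23 (adjusted p = 0.0391). RAB2B lost its call in 10 of the 15 alternatives, with adjusted p up to 0.117. It was lost without SP replicate 2, 3 or 4 (0.0610, 0.101 and 0.0920), without NSP replicate 1, 2, 3 or 4 (0.117, 0.107, 0.0662 and 0.0991), with median-ratio (0.0731) and upper-quartile factors (0.113) and without the filter (0.0529).

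RAB1A, which is needed for transport from the endoplasmic reticulum to the Golgi, stood at 301, 216, 161 and 108 CPM in SP and at 126, 123, 155 and 112 CPM in NSP. SP replicate 4 fell below the NSP range and the other SP libraries were above it, and the threshold was not passed (0.52 ± 0.31, adjusted p = 0.223 by limma-voom) except with quality weights (0.74, adjusted p = 0.0239). RAB30, a Golgi Rab, stood at 31.5, 13.2, 15.4 and 14.1 CPM in SP and at 33.4, 38.9, 24.6 and 33.3 CPM in NSP. SP replicate 1 alone lay within the NSP range. RAB30 missed the threshold (-0.88 ± 0.33, adjusted p = 0.0648) and passed in 4 alternatives, among them that without SP replicate 1 (-1.18, adjusted p = 0.0160).

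RAB6A, which directs transport through the Golgi, had 57.6 ± 11.8 CPM in SP against 59.8 ± 2.95 CPM in NSP (SD, n = 4 each; adjusted p = 0.848). Its paralog RAB6B, known from neurons, stood at 6.04, 6.72, 2.83 and 21.9 CPM in SP and at 4.02, 3.62, 0.0501 and 3.98 CPM in NSP. The difference rested on SP replicate 4 and NSP replicate 3 and did not pass (2.18 ± 1.15, adjusted p = 0.179). RAB18, of lipid droplets and the endoplasmic reticulum, had 118 ± 20.4 CPM in SP against 153 ± 18.9 CPM in NSP (adjusted p = 0.201). Among the 8 tested Rab genes of this group, RAB34 included, 2 were higher and 1 was lower, against 17.5% and 13.3% of all tested genes. RAB39A, an endosomal and autophagy Rab listed with this group, fell below the filter with 45 reads in SP and 3 reads in NSP libraries, a ratio of 17.8 (95% interval 5.71 to 89.5, which covers counting error only).

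For regulated secretion, RAB27A was higher and RAB3C lower. RAB27A, which docks melanosomes, lysosome-related granules and the lytic granules of cytotoxic T cells, stood at 161, 117, 190 and 115 CPM in SP and at 61.9, 45.7, 73.8 and 28.6 CPM in NSP. The lowest SP library was well above the highest NSP library, with a log2 fold change of 1.53 ± 0.32 (adjusted p = 0.00509 by limma-voom). SP replicates 1 and 3, the highest for RAB27A, were also the highest for melanocyte markers (13900 and 8590 CPM, against 2250 and 2800 CPM in SP replicates 2 and 4), though in another order. For T and NK cell markers SP replicate 3 was the highest (3070 CPM) and SP replicate 1 the lowest SP library (775 CPM). The part of these cells in the RAB27A value was not tested. RAB27B, its paralog in exocrine and epithelial cells, stood at 46.0, 33.2, 2.40 and 3.68 CPM in SP and at 20.2, 12.9, 23.4 and 10.4 CPM in NSP. SP replicates 1 and 2 were above all NSP libraries and SP replicates 3 and 4 below them (-0.49 ± 0.84, adjusted p = 0.695), and RAB27A made up 82.4%, 82.4%, 99.1% and 97.7% of the pair per exon length in SP and 78.7% to 82.6% in NSP.

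RAB3B and RAB3C act in the release of synaptic vesicles and hormone granules. RAB3C had 10 reads in all SP and 285 reads in all NSP libraries, that is 0.0539, 0.258, 0.0534 and 0.208 CPM in SP and 2.30, 4.36, 3.76 and 3.16 CPM in NSP. It was near the detection limit in each SP library, 0 of which reached the minimum of the filter. The fitted log2 fold change was -4.51 ± 0.85 by limma-voom and -2.58 with limma-trend. RAB3C was tested only through its NSP libraries, so no p is given for it. RAB3B had 11.4 ± 4.58 CPM in SP against 6.23 ± 1.40 CPM in NSP (SD, n = 4 each; 0.78 ± 0.41, adjusted p = 0.170). RAB44, a large Rab known from immune cells, had 1.56 ± 1.41 CPM in SP against 1.85 ± 1.34 CPM in NSP (adjusted p = 0.579). RAB33A had 21 reads in 1 SP library and 7 reads in 1 NSP library, and RAB42 had 0 reads in SP and 11 reads in NSP libraries, of which 10 were in NSP replicate 2 and 1 in NSP replicate 4. Neither was tested, and with nearly all RAB42 reads in 1 library no fold is given.

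RAB32 and RAB38 are close relatives that carry pigment enzymes such as TYRP1 to the melanosome and act in other lysosome-related organelles. RAB32 stood at 47.1, 38.4, 42.5 and 20.6 CPM in SP and at 143, 200, 80.6 and 118 CPM in NSP. All SP libraries lay below all NSP libraries, with a log2 fold change of -1.83 ± 0.35 (adjusted p = 0.00328 by limma-voom). RAB38 stood at 23.7, 3.21, 15.6 and 7.22 CPM in SP and at 29.8, 22.1, 8.71 and 26.4 CPM in NSP. The groups overlapped and RAB38 did not pass (-1.04 ± 0.62, adjusted p = 0.231), except with quality weights (-1.68, adjusted p = 0.0448). Within SP, RAB38 and the summed melanocyte markers had the same order of libraries, replicate 1 highest, then 3, 4 and 2. RAB32 was also highest in replicates 1 and 3, but was lowest in replicate 4. The part of melanocytes in these values was not tested. Melanocyte markers went the other way between the groups, with 11 of 12 higher in SP, among them TYRP1 (3521 ± 3227 CPM in SP against 112 ± 29.3 CPM in NSP) and PMEL (1831 ± 1228 CPM in SP against 51.6 ± 35.4 CPM in NSP).

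**Figure D3:**
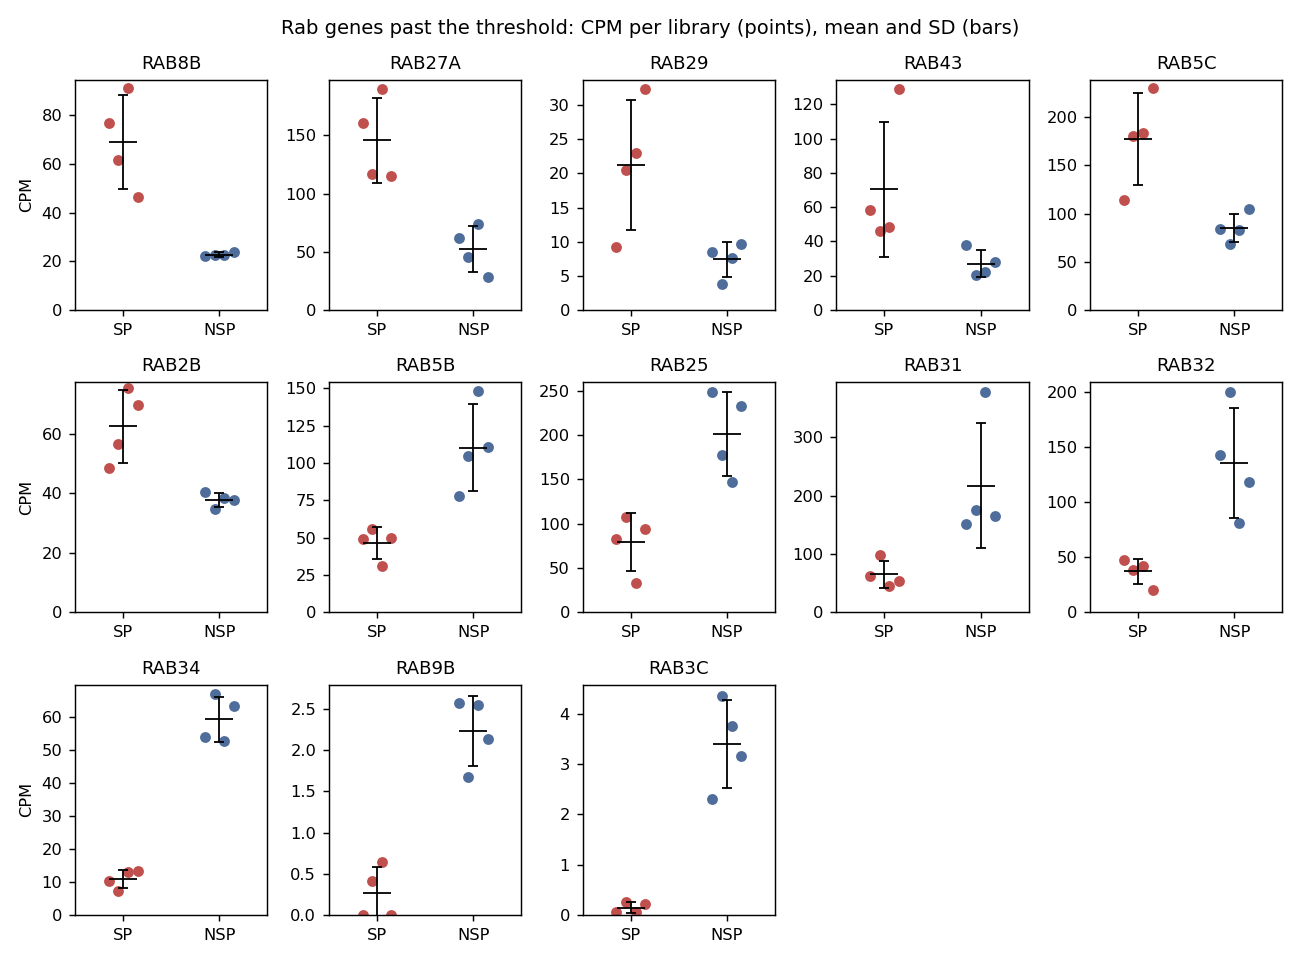
CPM (y axis, linear, each panel with its own scale from 0) of the 13 Rab genes past the threshold, with a point per library, SP left and NSP right, and bars for the mean and SD of 4 libraries. The groups are separate in 12 panels and overlap for RAB29, where SP replicate 1 (9.17 CPM) lies under the highest NSP library (9.67 CPM).

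SP libraries varied more among themselves than NSP libraries did. The coefficient of variation of CPM was larger in SP for 25 of the 32 tested Rab genes (78.1%), against 70.5% of the 9920 tested genes with reads in both groups, and its median was 36.7% in SP and 24.0% in NSP for the Rab genes, against 42.1% in SP and 27.4% in NSP for those 9920 genes. More variable in NSP were RAB5B, RAB21, RAB24, RAB27A, RAB28, RAB31 and RAB32. The highest SP value stood in SP replicate 1 for 11 of the 32 Rab genes and in SP replicate 4 for 9, against 26.0% and 32.9% of all tested genes. The highest NSP value stood in NSP replicate 3 for 11, against 32.7% of all tested genes.

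Of the 13 called Rab genes, 9 kept their call in all 15 alternatives that were run, namely RAB8B and RAB27A among the higher genes and all 7 lower ones. For RAB3C, tested through its NSP libraries alone, a kept call carries little weight. The same holds for RAB9B, which had 1 SP library at the minimum of the filter and needed its NSP libraries to pass. The authors' deposited table, whose EDGE test works on the same reads, calls 4 Rab genes higher in SP at a corrected p under 0.05 (RAB27A, RAB39A, RAB43 and RAB8B), against 7.58% of its 20922 entries. The same authors' deposited table calls 7 lower, against 5.84% of its entries, and these are the 7 genes that limma-voom called, RAB3C and RAB9B included. Both counts are of 35 Rab genes, of which 32 passed the filter on low counts. Of the 20922 entries only 10004 passed it, so these shares are not a like background for the Rab genes. RAB5C (corrected p = 0.0716), RAB29 (0.0661) and RAB2B (0.379) were not called in the authors' deposited table.

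**Figure D4:**
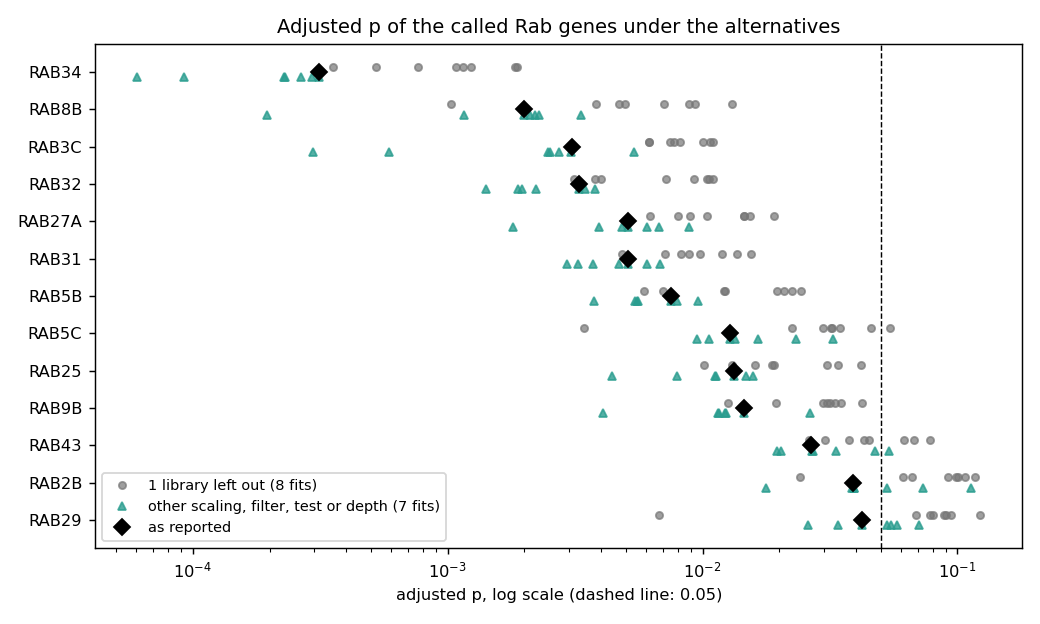
Adjusted p (x axis, log scale) of the 13 called Rab genes as reported (diamonds), in the 8 fits that leave out 1 library (circles) and in 7 fits with another scaling, filter, test or depth (triangles). RAB2B and RAB29 have most of their points right of the dashed line at 0.05, RAB43 has 4 and RAB5C 1, and the other 9 genes have none.

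The proteins that act on or with Rabs were described through 12 lists with 272 tested genes, which were written with earlier results of these data known. Together they held 48 higher (17.6%) and 19 lower genes (6.99%) by limma-voom, against 17.5% and 13.3% of all tested genes, with a median log2 fold change of 0.20 against 0.11 for all tested genes. That median was 0.10 with median-ratio factors, 0.02 with upper-quartile factors and 0.06 without NSP replicate 1, where the median of all tested genes was 0.003, -0.075 and -0.014. The split depended on the scaling, with 39 higher and 26 lower under median-ratio factors and 30 higher and 32 lower under upper-quartile factors. The higher genes numbered 25 without NSP replicate 1 (9.19%, against 11.6% of all tested genes), 30 without NSP replicate 2 (against 12.8% of all tested genes) and 29 without NSP replicate 4 (10.7%, against 12.5%). The lower genes numbered 40 without SP replicate 4 (14.7%, against 18.0%) and 12 without NSP replicate 4 (4.41%, against 9.66%). The shares of all tested genes thus moved in the same direction as those of the lists. Of the 48 higher genes, 2 (RINL and BICD1) passed the filter through their SP libraries alone, so that their difference is partly set by the filter. Of the 44 genes taken from these lists for their small p, 31 kept their call in all 15 alternatives. For the single lists below, the shares of all tested genes were 17.5% higher and 13.3% lower. With upper-quartile factors they were 14.0% and 16.5%.

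Among 25 tested GEFs, 3 were higher (12.0%) and 5 lower (20.0%), against 17.5% and 13.3% of all tested genes. The median log2 fold change was -0.06, and with upper-quartile factors 2 were higher and 6 lower. The lower GEFs numbered 3 without NSP replicate 4, and the higher ones 5 with quality weights. RIN3, which activates RAB5 and RAB31, rose to 51.2 ± 13.7 CPM in SP, against 3.18 ± 1.49 CPM in NSP (log2 fold change 4.07 ± 0.46, adjusted p = 0.000287 by limma-voom). Its relative RINL, one of the genes that passed the filter through SP alone, had 9.86 ± 6.41 CPM in SP against 0.145 ± 0.232 CPM in NSP. ST5, an activator of RAB13 also known as DENND2B, fell (-1.70 ± 0.33, adjusted p = 0.00381), as did DENND2C (-1.84 ± 0.38, adjusted p = 0.00518) and ALS2CL, a RAB5 regulator (-1.84 ± 0.49, adjusted p = 0.0174). The higher DENND5A (1.11 ± 0.34, adjusted p = 0.0302) lost its call in 6 alternatives, with adjusted p up to 0.0833, those without SP replicate 3 or 4 or NSP replicate 1, 2 or 4 among them.

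Of 22 tested TBC domain GAPs, 5 were higher (22.7%) and 0 lower, against 17.5% and 13.3% of all tested genes. The median log2 fold change was 0.29, and with either of the other scaling factors 4 were higher and 1 lower. TBC1D9 stood at 156, 135, 129 and 194 CPM in SP and at 61.8, 49.4, 46.8 and 51.3 CPM in NSP. All SP libraries were above NSP (1.54 ± 0.22, adjusted p = 0.000733 by limma-voom). RABGAP1L (1.43 ± 0.27, adjusted p = 0.00328) and TBC1D1, a GAP of RAB8A, RAB10 and RAB14 in GLUT4 traffic (0.98 ± 0.21, adjusted p = 0.00576), were also higher. Of 11 tested genes for prenylation, GDI and membrane delivery, 2 were higher (18.2%) and 1 lower (9.09%), against the same 17.5% and 13.3%. The median log2 fold change was 0.39. With upper-quartile factors 2 were higher and 3 lower, and without NSP replicate 1 there was 1 higher. The higher ones were YIPF5 (1.34 ± 0.27, adjusted p = 0.00411) and PRAF2 (1.82 ± 0.47, adjusted p = 0.0152), of which PRAF2 missed the threshold when NSP replicate 1 was left out (adjusted p = 0.0614). RABGGTA, a subunit of the enzyme that attaches the lipid tail to Rabs, was lower (-0.76 ± 0.22, adjusted p = 0.0242), and lost its call without SP replicate 1 or 2 or NSP replicate 3 or 4 (adjusted p = 0.0564, 0.0683, 0.0501 and 0.0696).

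The 16 tested effectors of secretory granules and melanosomes held 7 higher (43.8%) and 2 lower genes (12.5%), against 17.5% and 13.3% of all tested genes. With upper-quartile factors 6 were higher and 3 lower. The median log2 fold change was 1.60 (0.74 without the filter). The lower genes numbered 5 without SP replicate 1. SYTL3, a RAB27 effector of the synaptotagmin-like family, stood at 109, 262, 524 and 144.2 CPM in SP and at 3.25, 2.51, 6.96 and 5.59 CPM in NSP. The gap between the groups was wide (5.68 ± 0.72, adjusted p = 0.000417 by limma-voom), and SP replicate 3, the highest, was also the highest for T and NK cell markers. Another RAB27 effector of the same family, SYTL1, was lower, at 50.5 ± 8.68 CPM in SP against 153 ± 18.9 CPM in NSP (-1.61 ± 0.22, adjusted p = 0.000599). MYO5A, the motor that RAB27A recruits to melanosomes, was higher (2.02 ± 0.37, adjusted p = 0.00263), as was SYT11, a synaptotagmin (3.80 ± 0.53, adjusted p = 0.000672). UNC13B, a priming factor of vesicle release, was lower (-0.99 ± 0.24, adjusted p = 0.0106).

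Of 23 tested effectors of endosomes and recycling, 5 were higher (21.7%) and 1 lower (4.35%), against 17.5% and 13.3% of all tested genes. The median log2 fold change was 0.48, and with upper-quartile factors 3 were higher and 2 lower. The higher ones numbered 2 without NSP replicate 1, 2 or 4, and 3 without NSP replicate 3 or SP replicate 3. MICAL1, an actin-oxidizing enzyme that binds RAB1, RAB8 and RAB10, stood at 118 ± 35.9 CPM in SP against 4.05 ± 2.05 CPM in NSP (4.98 ± 0.48, adjusted p = 0.000165 by limma-voom). OCRL, a phosphoinositide phosphatase that binds several Rabs, was lower, at 6.14 ± 4.96 CPM in SP against 29.4 ± 6.19 CPM in NSP (-2.54 ± 0.49, adjusted p = 0.00360). EHD4, a membrane-remodelling ATPase of endosomes, was higher (1.51 ± 0.37, adjusted p = 0.0117). LRRK2, the kinase that phosphorylates RAB8A, RAB10 and RAB29, stood at 95.9, 118, 76.4 and 183 CPM in SP and at 21.0, 28.0, 109 and 27.2 CPM in NSP. NSP replicate 3 lay within the SP range. LRRK2 passed (1.63 ± 0.48, adjusted p = 0.0254) and lost its call without SP replicate 2 or 4 (0.0527 and 0.0700) and without NSP replicate 1, 2 or 4 (0.107, 0.0723 and 0.0747).

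Of 12 tested Golgi effectors, 3 were higher (25.0%) and 1 lower (8.33%), against 17.5% and 13.3% of all tested genes. The median log2 fold change was -0.03, and with upper-quartile factors 2 were higher and 1 lower. With 1 library left out, 1 to 3 were higher (1 without NSP replicate 1, 2 or 4 or SP replicate 1, 2 or 3) and 0 to 3 lower (3 without SP replicate 4). BICD1 and BICD2 are dynein adaptors that RAB6 recruits. BICD1 stood at 20.8, 11.9, 24.9 and 31.9 CPM in SP and at 0, 0, 0 and 0.340 CPM in NSP. No NSP library reached the minimum of the filter, so no p is given for BICD1. BICD2 stood at 85.5, 74.6, 62.6 and 151 CPM in SP and at 183, 172, 151 and 172 CPM in NSP. The highest SP and the lowest NSP library of BICD2 were close to each other (-0.95 ± 0.27, adjusted p = 0.0233 by limma-voom), and the call was lost without SP replicate 2 or 3 or NSP replicate 2 or 4 (0.0625, 0.0655, 0.0592 and 0.0632).

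Coats and adaptors had 9 higher (27.3%) and 0 lower genes of 33, against 17.5% and 13.3% of all tested genes. The median log2 fold change was 0.36. With upper-quartile factors 3 were higher and 2 lower, against 14.0% and 16.5% of all tested genes. The higher genes numbered 3 to 8 with 1 library left out (3 without NSP replicate 1, 4 without NSP replicate 2 or 4 and 5 without SP replicate 2). The COPII subunits SEC24D (1.52 ± 0.24, adjusted p = 0.00117 by limma-voom) and SEC24B (1.07 ± 0.24, adjusted p = 0.00736) and the clathrin light chain CLTA (0.81 ± 0.20, adjusted p = 0.0122) had the smallest p. Retromer and sorting nexins had 5 higher (21.7%) and 0 lower of 23, and 2 and 1 with upper-quartile factors. Their median was 0.48, and 1 to 5 were higher with 1 library left out. These were 1 without NSP replicate 1, and 2 without NSP replicate 2 or 4 or SP replicate 2 or 3. SNX16 had the smallest p (2.92 ± 0.48, adjusted p = 0.00148). SNAREs had 4 higher (12.1%, under the 17.5% of all tested genes) and 0 lower of 33, and 1 and 1 with upper-quartile factors. Their median was 0.20, and 1 to 5 were higher with 1 library left out. These were 1 without NSP replicate 1, and 2 without NSP replicate 4 or SP replicate 2 or 3. Among the SNAREs STX11, a syntaxin needed for the release of lytic granules, stood at 23.7 ± 5.70 CPM in SP against 5.15 ± 2.79 CPM in NSP (2.39 ± 0.46, adjusted p = 0.00361).

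Tethering complexes had 1 higher (3.57%) and 4 lower genes (14.3%) of 28, against 17.5% and 13.3% of all tested genes. The median log2 fold change was 0.07, and with upper-quartile factors 1 was higher and 5 lower. The lower ones numbered 2 without NSP replicate 2 or 4 or SP replicate 1 or 3. The exocyst subunit EXOC6B was lower (-1.41 ± 0.35, adjusted p = 0.0128 by limma-voom) and the Golgi tether subunit COG3 was higher (0.89 ± 0.23, adjusted p = 0.0134). Another COG subunit, COG4, was lower (-1.14 ± 0.32, adjusted p = 0.0230), with overlapping groups. COG4 lost its call without SP replicate 1 or 3 or NSP replicate 2. VPS52 was lower as well (-0.87 ± 0.24, adjusted p = 0.0187), and lost its call without NSP replicate 4. ARF and ARL proteins and their regulators had 4 higher (12.9%) and 5 lower (16.1%) of 31, against the same 17.5% and 13.3%. Their median was 0.03, and with upper-quartile factors the counts were again 4 and 5. ACAP1, a GAP of ARF6 in integrin recycling (2.70 ± 0.27, adjusted p = 0.000174), and IQSEC1, an exchange factor of ARF6 (2.39 ± 0.36, adjusted p = 0.000983), were higher, and ARL3, which works at the cilium (-1.23 ± 0.29, adjusted p = 0.0103), was lower. None of the 15 tested ESCRT genes, which sort cargo into multivesicular bodies, passed in either direction by limma-voom or limma-trend (median 0.04), and 2 were lower with upper-quartile factors and 3 without SP replicate 4. At an unadjusted p under 0.05, 0 ESCRT genes were higher and 2 lower. In the other lists with 0 lower genes, which was also their count by limma-trend, an unadjusted p under 0.05 gave 1 lower GAP, 2 lower coat genes, 1 lower gene of retromer and sorting nexins and 2 lower SNAREs, and without SP replicate 4 the lower calls were 1, 3, 2 and 3 in this order of lists.

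**Figure D5:**
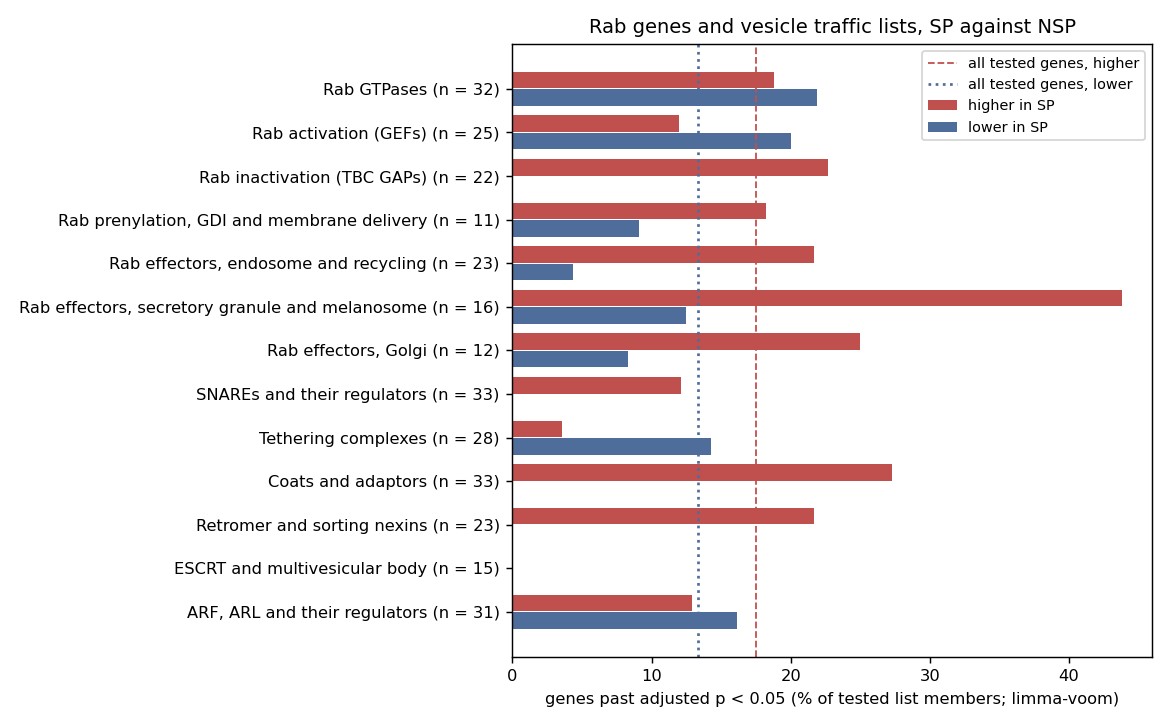
Percentage of tested genes higher (upper bar of each pair) and lower (lower bar) in SP at adjusted p under 0.05 by limma-voom, for the Rab genes and the 12 traffic lists, with lines at the shares of all tested genes (17.5% higher, 13.3% lower). The longest bar is that of the effectors of secretory granules and melanosomes (7 of 16 higher), and the ESCRT list has no bar.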

How the data were processed

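The authors deposited 1 table for all 8 libraries, in fixed-width fields of 8 characters stacked in 6 blocks of lines. Neighbouring fields touch, so it was read by character position. The field used per library holds the deposited, unscaled count of exon reads, and the deposited group means, recomputed from it, differed by at most 0.05. Another field holds the exon length. Per the file headers, the authors ran an EDGE test, and its p-values and corrected p-values were deposited beside a fold of group means, which is NSP over SP. Not given in the sources used here are the aligner, the annotation, the genome build, the counting rule and its use of strand. A further 143 fields with values of single libraries were not used. Column headers show the group but not the sample number, so it is not known which animal or sample a library number stands for, and no batch is labelled.

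Gene names are cut at 8 characters. Of 20922 entries, 10904 had a usable name, and the rest, with 10.3% of reads, remained part of the totals and of the tests. All 35 Rab symbols occur in the RefSeq gene table of assembly mOryCun1.1, which was used for names only. No sequence or coordinate is given.

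Scaling used TMM factors, trimmed by 30% on fold changes and 5% on levels. The filter asked for a CPM of at least 0.508, which is 10 reads in the median library, in at least 4 libraries and at least 15 reads in all. Each of 10004 genes was tested with limma-voom (limma 3.58.1, R 4.3.3, count offset 0.5, group as the only term, empirical Bayes, two-sided), with Benjamini-Hochberg adjustment over all of them and a threshold of 0.05. Every p in the text named adjusted p is from limma. CPM per kilobase divides CPM by exon length. The counting interval of a ratio is an exact 95% binomial interval. It covers counting error only. The procedure was tested on simulated counts. Python 3.11.15 (SciPy 1.17.1, NumPy 2.4.6, pandas 2.3.3, matplotlib 3.10.9) was used for tables and figures.

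Named were each Rab gene past the threshold, Rab genes that share its number or role, the 5 most abundant, and of each traffic list up to 3 genes per direction with the smallest p. Some genes the rule allows are not described. The Rab genes, lists, role groups, tests and alternatives were chosen with earlier results of these data known, and the role groups were set by hand from general knowledge of the proteins. There were 15 alternatives, namely upper-quartile factors, median-ratio factors, a filter of 1 read in all, 10 reads in 4 libraries, limma-trend on log2 CPM with 0.5 added, quality weights, thinning to 15553295 reads, and each of 8 libraries left out. A count test by edgeR or DESeq2 was listed as a conditional alternative and was not run. The condition was a column that reads as counts when the table is split into columns. The touching fields gave none, although the fields read by character position hold whole counts.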

Additional observations from a re-analysis of the deposited data

Results flagged for a closer look

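In 152 sets of 4 libraries (each of the 32 tested Rab genes and 44 named traffic genes, in SP and in NSP), 14 had 1 library far from the other 3 by Dixon's ratio (95% critical value), and 7 of these were sets of Rab genes. Chance flags about 1 in 20 such sets. No explanation was tested.

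SP replicate 4 held 3 of the Rab values. RAB13 stood at 108 CPM there, against 46.4 to 55.6 CPM in the other SP libraries. RAB43 stood at 129 CPM there, against 46.1 to 58.2 CPM. RAB6A was low there, at 40.1 CPM against 62.1 to 64.8 CPM. NSP replicate 3 held another 3, with RAB31 at 377 CPM against 152 to 175 CPM in the other NSP libraries, RAB23 at 4.11 CPM against 2.26 to 2.53 CPM, and RAB6B at 0.0501 CPM against 3.62 to 4.02 CPM. RAB30 was high in SP replicate 1, at 31.5 CPM against 13.2 to 15.4 CPM.

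Among traffic genes, LRRK2 stood at 109 CPM in NSP replicate 3, against 21.0 to 28.0 CPM in the other NSP libraries. VPS52 stood at 117 CPM in SP replicate 4, against 78.0 to 83.9 CPM in the other SP libraries. GORASP2 stood at 201 CPM in SP replicate 1 (others 183 to 185 CPM), SNX11 at 72.3 CPM in SP replicate 1 (others 102 to 108 CPM) and SEC24D at 119 CPM in SP replicate 2 (others 164 to 171 CPM). EHD4 stood at 131 CPM in NSP replicate 2 (others 169 to 174 CPM), and BICD1 at 0.34 CPM in NSP replicate 4, with no read in the other NSP libraries.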

How the results depend on the processing

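With 1 library left out in turn, the genes higher in SP over all tested numbered 1161 to 1944 (1161 without NSP replicate 1), the higher Rab genes 3 to 6, the higher genes of the traffic lists 25 to 51 and their lower genes 12 to 40. With upper-quartile factors, 3 Rab genes were higher, and 30 traffic genes were higher and 32 lower. The other counts over all tested genes, all Rab genes and all traffic genes stayed within 1.5 times. Counts of single lists moved further, with small numbers. Beside the values given with each list, quality weights gave 7 higher SNAREs (4 as reported), 9 of retromer and sorting nexins (5), 5 GEFs (3), 4 genes for prenylation, GDI and membrane delivery (2) and 2 of tethering complexes (1). Quality weights also gave 2 lower Golgi effectors (1), 2 lower effectors of endosomes and recycling (1), 2 lower genes for prenylation (1) and 1 lower GAP, coat gene and sorting gene each (0). Median-ratio factors gave 3 higher effectors of endosomes and recycling (5), 2 higher genes of retromer and sorting nexins (5, and 2 also without the filter), 2 lower genes for prenylation (1), 2 lower effectors of endosomes and recycling (1), and 1 lower GAP, sorting gene and ESCRT gene each (0). Without SP replicate 4 there were 2 higher tethering genes (1) and 2 lower genes for prenylation (1), and without SP replicate 2 or 4 there were 2 lower effectors of endosomes and recycling (1). A lower coat gene appeared without NSP replicate 1, and a lower GAP without NSP replicate 3. Of the 13 called Rab genes none changed sign, and RAB5C, RAB43, RAB2B and RAB29 lost their call in some alternatives, as given beside them. The uncalled RAB11A, RAB13, RAB27B, RAB44, RAB6A and RAB7A changed sign in some and stayed uncalled there. With quality weights the log2 fold changes were 0.411 for RAB11A, 0.228 for RAB27B, 0.028 for RAB6A and 0.016 for RAB7A. With 1 library left out they ranged from -0.365 to 0.428 for RAB11A, -0.452 to 0.089 for RAB13, -1.182 to 0.277 for RAB27B, -1.600 to 0.293 for RAB44 and -0.287 to 0.050 for RAB7A. The causes were not tested. Among the 44 named traffic genes none changed sign, and 31 kept their call throughout. The others were BICD2, COG4, DENND5A, GORASP2, LRRK2, PRAF2, RABGGTA, SNX11, SNX30, TMF1, VAMP3, VAMP5 and VPS52. No paired analysis was possible because the columns of the table show the group and no sample number. At 10 reads (RAB3C) and 20 reads (RAB9B) over all SP libraries, the size of a fold change is set largely by the offset. Its direction was the same in all 15 alternatives. That carries little weight, since both genes passed the filter only with their NSP libraries. Thinning to equal depth left 12 Rab genes called, RAB29 having lost its call.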
